A study of Mus musculus with 14 samples.

Results

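The genes that build and load the major histocompatibility complex (MHC) were followed through the aortic valves of 14 mice. The members are 10 genes chosen by function: the class II chains H2-Aa, H2-Ab1 and H2-Eb1, the invariant chain Cd74, the peptide exchange subunits H2-DMa and H2-DMb1, the class II transactivator Ciita, the class I heavy chains H2-K1 and H2-D1, and their light chain B2m. All 10 were found by Ensembl identifier among the 56941 genes of the deposited table, and all 10 reached the mean count of 10 required for testing, as did 19145 genes in all.

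MHC class II molecules present peptides from engulfed protein to CD4 T cells and are made mainly by macrophages, dendritic cells and B cells, while class I molecules present peptides from the cell's own protein and are made by nearly every cell. In the endosome the invariant chain occupies the class II groove until H2-DM exchanges its last fragment for a peptide. Ciita is the coactivator on which class II transcription depends, and class I genes answer to a related coactivator, Nlrc5, and to interferon.

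Bulk RNA-seq had been made from microdissected valve leaflets of male C57BL/6J wild type mice, each in its own library. The animals entered the study at 8 weeks of age, and every group, controls included, ate the hypercholesterolemic Breslow Western Diet. Ctrl mice (n = 4) were untreated, LY mice (n = 2) received LY272015 at 3 mg/kg, a compound that blocks the serotonin receptor HTR2B, AngII mice (n = 4) received angiotensin II at 1000 ng/kg/min from an osmotic pump for 28 days, and AngII+LY mice (n = 4) received both agents. The descriptions differ on whether every AngII and AngII+LY mouse or only some of them lost the pump, up to 48 hours before collection, and which mice did is not given in the sources used here. The labels of some dosed mice give other compound numbers, and these mice were grouped by their titles.

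Library totals ran from 20990655 to 73128220 counts, with the smallest in AngII 4. Mitochondrial counts made up 4.00% to 7.52% of Ctrl libraries and 8.62% to 9.76% of LY libraries, against 9.83% to 25.5% with AngII and 10.1% to 20.2% with both agents. Across genes, the AngII minus Ctrl difference followed the GC content of the transcript (Spearman rho = -0.54 over 19043 genes, a description across genes that share the libraries). For AngII+LY minus AngII the rho was 0.43. Ctrl 1 stood apart for several members below, and its count of the smooth muscle actin gene Acta2 was 284730 where the other Ctrl mice had 5386 to 39775. Acta2 was uneven in AngII+LY mice too, at 52820 and 47768 in AngII+LY 2 and 4 and 7060 and 7587 in AngII+LY 1 and 3. The part of tissue makeup, RNA quality and GC content in the results was not tested, and in whole leaflets fewer cells of a type and less RNA per cell cannot be told apart.

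The class II region lies on chromosome 17, with H2-Ab1 at chr17:34476663-34488393, H2-Aa at chr17:34493404-34506798 and H2-Eb1 at chr17:34504236-34535648 (GRCm39, GENCODE vM39). H2-DMa and H2-DMb1 lie in the same region at chr17:34338515-34358958 and chr17:34372046-34379204. The class I genes H2-K1 and H2-D1 flank it at chr17:34214987-34219321 and chr17:35481691-35486475. B2m is at chr2:121977957-121983594 and Ciita at chr16:10297923-10347694. All are protein coding.

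Because the class II genes are known to share a promoter module, the sequence before their starts is shown first. In this module the X1 box (core searched as AACNGATG) is bound by the RFX complex, a CRE-like site (searched as TGACGTCA) by CREB and the Y box (ATTGG, the inverted CCAAT box) by NF-Y, and Ciita joins these factors without itself binding DNA. The sequences are written 5′ to 3′ along the gene's strand, in lower case with the motifs in capitals, from RefSeq starts (table build GRCm38.p6) placed in GRCm39 by exact match. Base -1 is the base before the RefSeq start.

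H2-Eb1 (chr17:34524681-34524812, + strand, bases -160 to -29): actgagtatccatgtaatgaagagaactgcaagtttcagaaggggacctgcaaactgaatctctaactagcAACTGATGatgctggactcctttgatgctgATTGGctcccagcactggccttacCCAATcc
H2-Aa (chr17:34506799-34506957, - strand, bases -160 to -2): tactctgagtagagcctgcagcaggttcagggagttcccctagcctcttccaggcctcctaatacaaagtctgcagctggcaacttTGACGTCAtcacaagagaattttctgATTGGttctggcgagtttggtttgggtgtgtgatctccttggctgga
H2-DMb1 (chr17:34372066-34372095, + strand, bases -99 to -70): acctagtAACTGATGatgctaggctgattc

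H2-Eb1 and H2-DMb1 each held a match to the X1 core, at bases -89 to -82 and -92 to -85, where 1.98% of 32851 promoter entries held a match on either strand of their 250 upstream bases. H2-Aa held the CRE palindrome at -74 to -67, found in 1.55% of the promoters. A Y box core followed in each, at -59 to -55 in H2-Eb1, -61 to -57 in H2-DMb1 and -48 to -44 in H2-Aa, although ATTGG occurs in 33.8% of all promoters. GENCODE annotates the H2-DMb1 stretch as untranslated exon, and 42 bases of the H2-Eb1 window overlap an exon of the opposite-strand transcript Gm20513. RefSeq entries matched 7 of the 10 members, without H2-Ab1, Cd74 and Ciita. The 2 entries of H2-DMa held no match to the X1 core or the CRE palindrome, and 1 of them held ATTGG, at -198 to -194. No match says only that these letters are not in the window.

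Besides the Y box core ATTGG, the class I promoters carry other motifs. These are the palindrome GGGANTCCC that NF-kappaB factors bind and parts of the interferon response element, searched as GAANNGAAA and GAAANNGAA. The searches covered both strands, and the last pair of patterns can overlap each other.

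H2-K1 (chr17:34219322-34219481, - strand, bases -160 to -1): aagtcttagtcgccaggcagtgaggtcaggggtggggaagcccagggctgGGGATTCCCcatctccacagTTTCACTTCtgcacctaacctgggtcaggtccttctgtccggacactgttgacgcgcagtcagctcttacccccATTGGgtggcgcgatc
H2-D1 (chr17:35481899-35481928, + strand, bases -171 to -142): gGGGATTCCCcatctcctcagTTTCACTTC
B2m (chr2:121978024-121978053, + strand, bases -144 to -115): aacatGAAACTGAAaatgggaaagtccctt

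H2-K1 and H2-D1 held the NF-kappaB palindrome, found in 0.636% of promoters, followed by a match to GAANNGAAA on the opposite strand, found in 6.31%. B2m held GAAANNGAA, found in 7.13%, at -139 to -131. The Y box core ATTGG, found in 33.8%, was at -16 to -12 in H2-K1, -76 to -72 in H2-D1 and -53 to -49 in B2m. It therefore does not set the class II promoters apart. The H2-D1 and B2m matches lie outside the printed stretches. GENCODE annotates the H2-D1 and B2m stretches as untranslated exon, and 71 bases of the H2-K1 window overlap an exon of the opposite-strand transcript Gm53999. A match is a description of letters and no evidence of binding in these valves.

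Per kilobase of exon, with libraries scaled to a common size, class I genes were among the most abundant members in untreated valves. In Ctrl mice this level, in CPM per kilobase, was 498 ± 32.8 for H2-D1, 334 ± 106 for B2m, 249 ± 206 for Cd74, 153 ± 32.2 for H2-K1 and 148 ± 127 for H2-Ab1 (SD, n = 4). H2-Eb1 followed at 69.7 ± 66.2, H2-Aa at 48.1 ± 40.2, H2-DMb1 at 14.9 ± 10.7, H2-DMa at 6.40 ± 4.50 and Ciita at 0.49 ± 0.24. The ranges of every pair of neighbours in this order overlapped except H2-DMa and Ciita. These ranges over mice do not pair the genes within a mouse. In AngII mice the order at the top was B2m at 537 ± 284, H2-D1 at 408 ± 150 and H2-K1 at 113 ± 35.5, ahead of Cd74 at 58.8 ± 25.0 and H2-Ab1 at 40.0 ± 21.3. With the longest transcript in place of all exons, the Ctrl level of H2-K1 became 260 and that of H2-Ab1 also 260, so their order rests on the annotation.

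H2-Ea, the partner chain of H2-Eb1, had 0 counts in all 14 libraries, which allows a share of up to 1.43e-05% of counts in the smallest library (counting error only). C57BL/6 mice are known to lack H2-Ea transcription through a promoter deletion. H2-Eb2 had a mean count of 4.57 and was not tested.

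The first comparison asked how the AngII valve differed from the untreated valve. All 7 class II genes were lower in AngII than in Ctrl mice, by 2.65-fold for H2-Aa and H2-DMb1 to 4.24-fold for Cd74, while the class I heavy chains differed little and B2m was higher. None of the 10 members passed the threshold of this report, an edgeR quasi-likelihood adjusted p under 0.05 with an absolute log2 fold change above 0.5. No gene of the 19145 did (0.0%), since the smallest adjusted p over all genes was 0.0573. At an unadjusted p under 0.05, 7 of 10 members were lower and none was higher, beside 11.7% of all genes lower and 13.4% higher. The median log2 fold change was -1.51 over the 7 class II genes, -0.29 over the 3 class I genes and -0.06 over all genes tested.

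H2-Ab1, the beta chain of the I-A molecule, had normalized counts of 46784, 19932, 8625 and 8551 in Ctrl mice 1 to 4. In AngII mice 1 to 4 it had 6543, 9535, 3437 and 3104. Ctrl 1 held more than any other mouse, 1 AngII mouse lay above the lowest Ctrl mice, and the groups overlapped. The log2 fold change was -1.89 ± 0.54 (SE), with an edgeR adjusted p of 0.0733.

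H2-Aa, the alpha chain of the same molecule, had 24888, 11114, 5158 and 4313 in Ctrl and 4415, 6395, 3052 and 3292 in AngII mice, where AngII 1 and AngII 2 lay inside the Ctrl range. The difference of -1.41 ± 0.49 on the log2 scale (edgeR adjusted p = 0.105) was the smallest among the class II members along with H2-DMb1. H2-Eb1, the beta chain of the I-E molecule, had 23749, 8615, 3957 and 3556 against 3177, 3798, 1866 and 986. Here the groups met only between AngII 2 and Ctrl 4, and the log2 fold change was -2.02 ± 0.58 (edgeR adjusted p = 0.0724).

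Cd74 was the class II member whose groups did not overlap. Its normalized counts were 74068, 36924, 14594 and 12476 in Ctrl mice 1 to 4 and 10083, 11847, 6418 and 4219 in AngII mice 1 to 4. The gap between the highest AngII and the lowest Ctrl mouse was narrow, and 7.56% of all genes were lower with no overlap. The group means were 34515 ± 28594 and 8142 ± 3457 (SD, n = 4 each), with a log2 fold change of -2.08 ± 0.53 and an edgeR adjusted p of 0.0588.

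**Figure D1:**
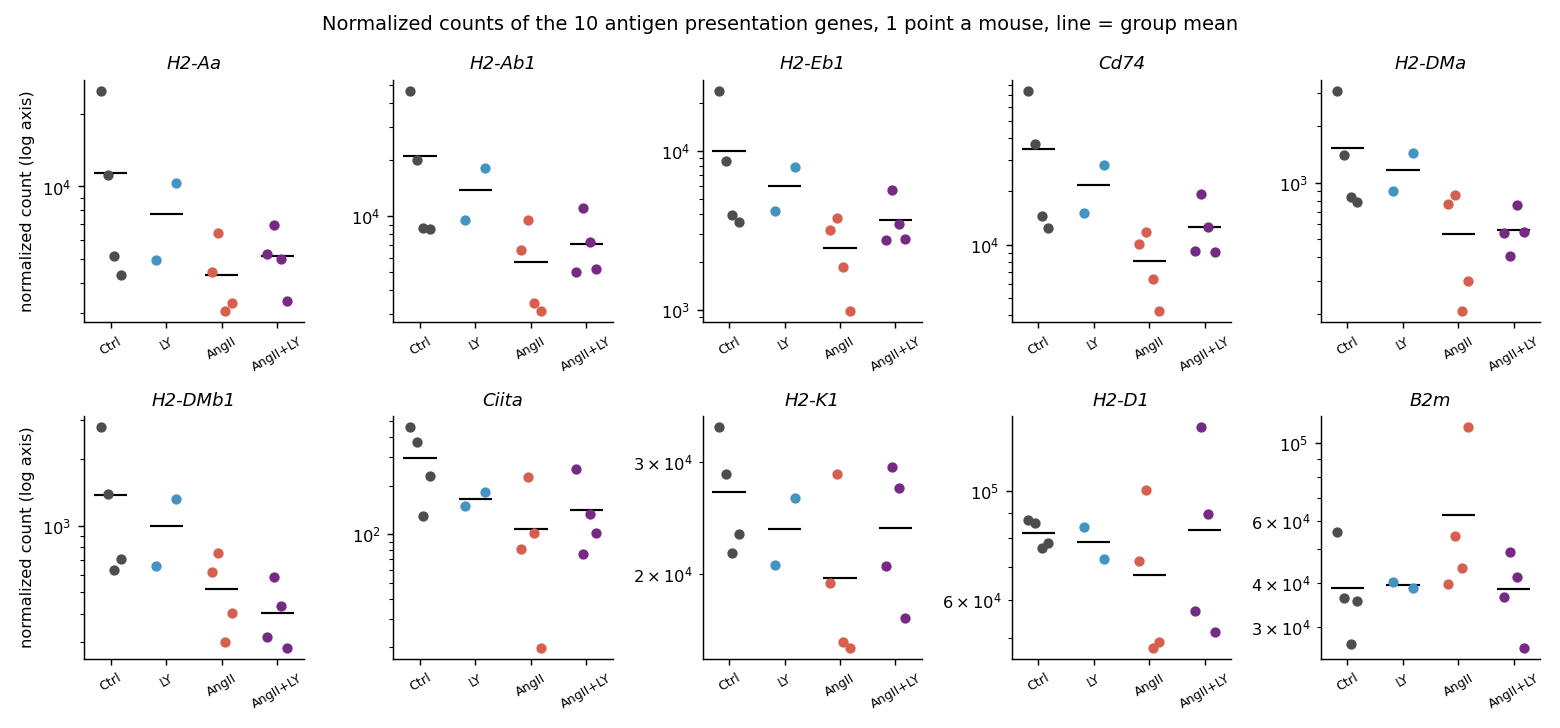
Normalized counts of the 10 members on a log axis, 1 point for each mouse and a line at the group mean, for Ctrl, LY, AngII and AngII+LY. For the 7 class II genes Ctrl 1 is the highest of the 14 mice, and the class I genes spread over a narrower range.

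The H2-DM pair, which edits the peptides class II carries, was lower to a like degree. H2-DMa had 3082, 1404, 840 and 784 in Ctrl and 765, 860, 207 and 298 in AngII mice, and differed by -1.51 ± 0.50 on the log2 scale (edgeR adjusted p = 0.0965). H2-DMb1 had 2772, 1383, 634 and 711 against 615, 750, 299 and 404, at -1.41 ± 0.47 (edgeR adjusted p = 0.0971). In both genes AngII 3 and AngII 4 lay lowest, and AngII 2 lay above the lowest Ctrl mouse.

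Ciita was the least abundant member. Its normalized counts were 459, 372, 131 and 230 in Ctrl and 81.7, 225, 102 and 19.9 in AngII mice, which overlapped. The log2 fold change was -1.46 ± 0.62, with an unadjusted p of 0.0343 and an adjusted p of 0.164 by edgeR. Its exons share 5.73% of their bases with the opposite-strand gene Dexi. Such shares were larger in H2-DMa (11.8%, with Brd2) and H2-DMb1 (17.0%, with Gm64535). They were also larger in H2-K1 (26.8%, with Gm53999) and H2-D1 (24.2%, with 5430410E06Rik). The strand used in counting is not given in the sources used here.

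The class I heavy chains overlapped between groups throughout. H2-K1 had 33972, 28729, 21607 and 23129 in Ctrl and 19340, 28675, 15652 and 15323 in AngII mice, which differed by -0.44 ± 0.25 on the log2 scale (edgeR adjusted p = 0.281). H2-D1 had 87313, 85933, 76483 and 78355 against 71936, 100323, 47863 and 49067, at -0.29 ± 0.31 (edgeR adjusted p = 0.597). AngII 2 was above every Ctrl mouse for H2-D1, and AngII 1, AngII 3 and AngII 4 were below every Ctrl mouse for both genes. Of the 50-base stretches of the longest transcript, 25.5% in H2-K1 and 27.7% in H2-D1 also occur in transcripts of other genes, so reads may be split between these paralogs and overlapping transcripts. In H2-DMb1 this share was 31.7%, mostly with its neighbour H2-DMb2, whose log2 fold change was -1.40 ± 0.64.

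B2m, the light chain common to all class I molecules, went the other way. It had 56069, 36351, 26847 and 35576 in Ctrl and 39787, 54279, 44265 and 110843 in AngII mice. The log2 fold change was 0.69 ± 0.33 (edgeR adjusted p = 0.207), and AngII 4, the smallest library, held the highest value of all. Without AngII 4 the difference was 0.25 ± 0.26 (edgeR unadjusted p = 0.355), and without Ctrl 1 it was 0.92 ± 0.34 (edgeR unadjusted p = 0.0178, adjusted p = 0.176). By the DESeq2 Wald test with all mice the unadjusted p was 0.0280 and the adjusted p 0.0950.

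The size of the class II difference depended on single libraries. Without Ctrl 1, the log2 fold changes were -1.13 ± 0.45 for H2-Ab1, -0.68 ± 0.38 for H2-Aa, -1.13 ± 0.45 for H2-Eb1 and -1.39 ± 0.44 for Cd74, and 3 of the 7 genes kept an unadjusted p under 0.05, beside 9.0% of all genes lower. Leaving out Ctrl 1 and AngII 4 together, a choice made after the values were seen, left all 7 lower at -1.17 to -0.57, with 1 of 7 (Cd74) at an unadjusted p under 0.05, beside 5.05% of all genes lower. Without Ctrl 4, 3 members (H2-Ab1, H2-Eb1 and Cd74) passed the threshold as lower, beside 0.783% of all genes, and without AngII 1, Cd74 did, beside 3.17%. By the DESeq2 Wald test, 6 of the 7 class II genes passed, all but Ciita, beside 4.75% of all genes called lower, and by the newer version of edgeR's quasi-likelihood method Cd74 passed (adjusted p = 0.0484), beside 0.454% called lower.

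With counts corrected for GC content, the 7 class II genes stayed lower, at log2 fold changes of -1.65 to -0.95, and 6 of 7 kept an unadjusted p under 0.05, beside 4.2% of all genes lower. The same correction moved the median of all genes from -0.06 to 0.09. H2-K1 and H2-D1 then stood at 0.04 ± 0.23 and 0.18 ± 0.28, so no direction can be given for the heavy chains.

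**Figure D2:**
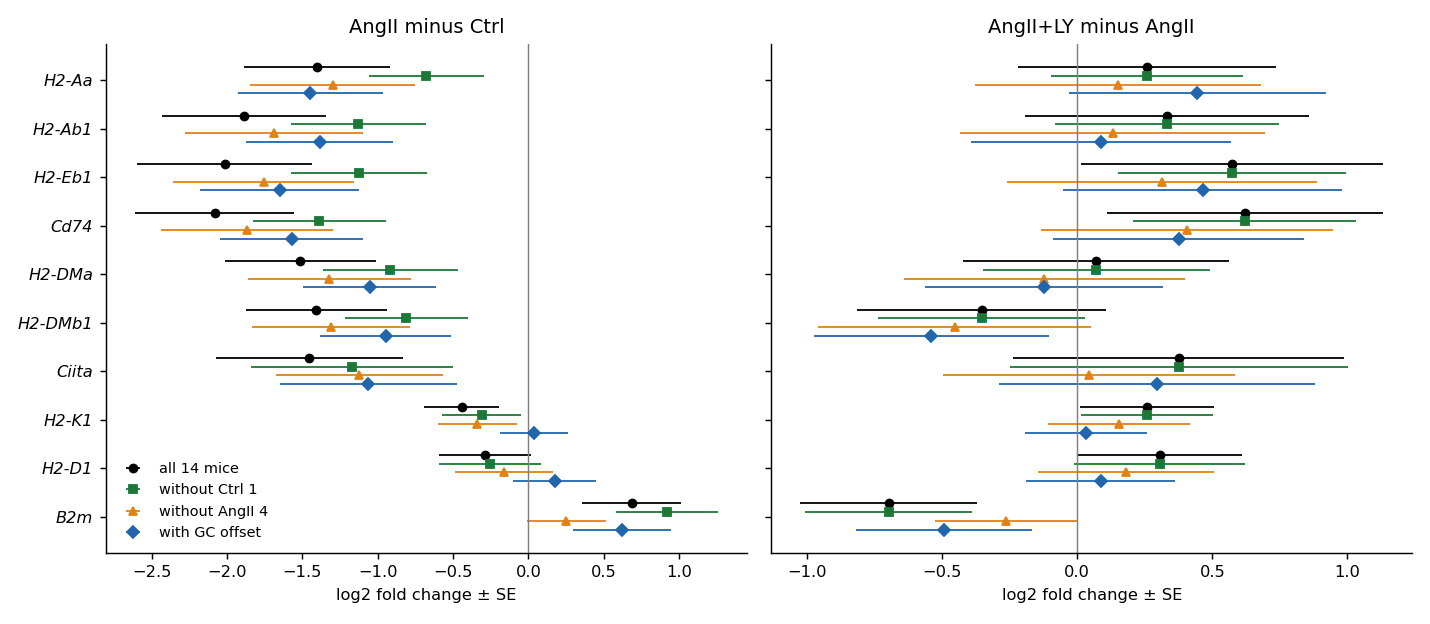
Log2 fold changes ± SE of the 10 members for AngII minus Ctrl (left) and AngII+LY minus AngII (right), with all 14 mice, without Ctrl 1, without AngII 4 and with the GC offset. On the left the 7 class II genes are below 0 in each of these fits while H2-K1 and H2-D1 cross 0 with the GC offset, and on the right the values with all mice lie between -0.70 and 0.62.

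The members were then set against each other within each library, which removes the library size. The count ratio of H2-Aa to H2-Ab1, the chains of I-A, was 0.532, 0.558, 0.598 and 0.504 in Ctrl and 0.522 and 0.575 in LY mice. It was 0.675, 0.671, 0.888 and 1.06 in AngII and 1.06, 0.630, 0.684 and 0.641 in AngII+LY mice. All 8 mice given AngII thus lay above all 6 mice without it. For AngII against Ctrl the exact 2-sided permutation test on the log2 ratio gave p = 0.0286, the smallest that 4 against 4 mice allow, and 0.171 after adjustment over the 30 ratio tests run. These ratios were chosen after the values were seen.

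The transcripts of this ratio differ in GC content. The longest transcript of H2-Aa is 46.5% GC and that of H2-Ab1 55.7%, and H2-Aa and B2m (46.4%) are the members of lowest GC. The log2 fold change of H2-Aa exceeded that of H2-Ab1 by 0.48 in the main fit and was lower by a difference of -0.06 with the GC offset.

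The ratio of H2-DMb1 to H2-Ab1 was 0.0786 to 0.130 with AngII alone and 0.0536 to 0.0633 with the antagonist added, with no overlap (exact permutation p = 0.0286, adjusted p = 0.171). Its Ctrl range was 0.0593 to 0.0832. The ratio of Cd74 to H2-Ab1 ran from 1.24 to 1.87 over the 14 mice, and from AngII to Ctrl its exact permutation p was 0.400. The ratio of H2-Ab1 to H2-K1 stayed at 0.203 to 0.338 in AngII mice, below the 0.370 to 1.38 of Ctrl mice (exact permutation p = 0.0286, adjusted p = 0.171). The ratio of B2m to the sum of H2-K1 and H2-D1 was 0.274 to 0.462 in Ctrl and 0.421 to 1.72 in AngII mice, highest in AngII 4 (exact permutation p = 0.0857, adjusted p = 0.214).

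**Figure D3:**
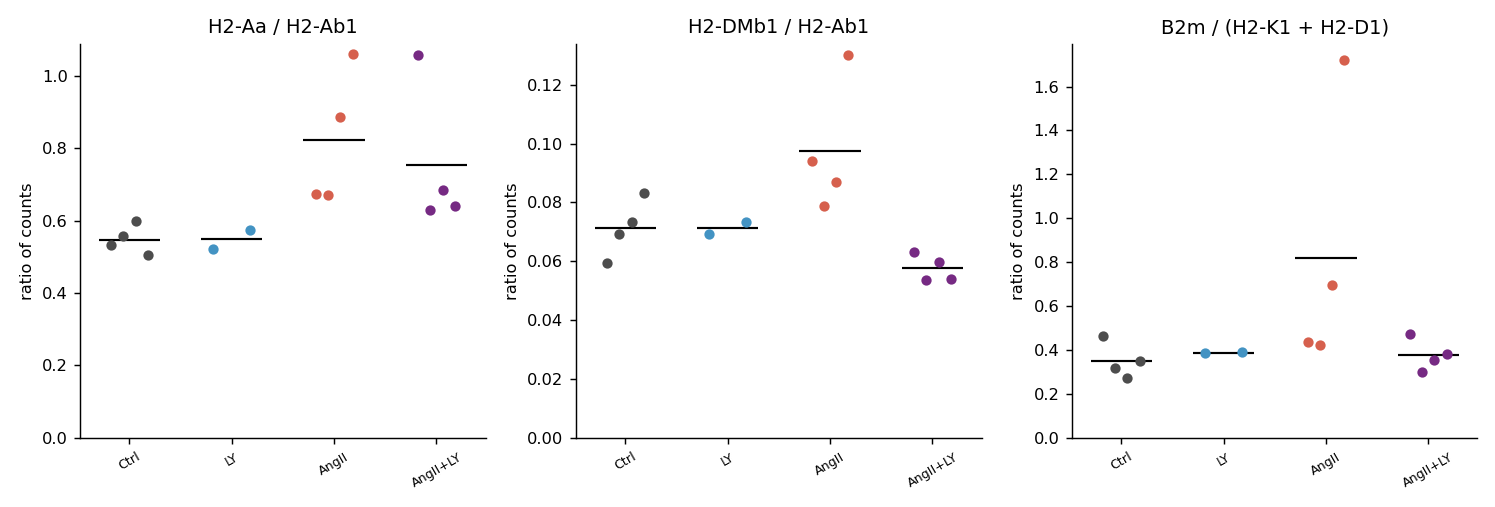
Count ratios of H2-Aa to H2-Ab1, H2-DMb1 to H2-Ab1 and B2m to the sum of H2-K1 and H2-D1, 1 point for each mouse with a line at the group mean, on axes that start at 0. The 8 mice given AngII lie above 0.62 for H2-Aa to H2-Ab1 and the 6 others below 0.60, and AngII 4 is the highest point for B2m.

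Across the 14 mice the class II genes varied together. H2-Ab1 correlated with Cd74 at Pearson r = 0.986 and Spearman rho = 0.947 (permutation p = 1e-05 for both, the smallest that 100000 permutations give, adjusted p = 0.0001 over 10 pairs). The r was 0.972 without the 2 mice farthest from the median, Ctrl 1 and AngII 4, and 0.981 within groups. With Ciita, H2-Ab1 had r = 0.713 and rho = 0.547 (permutation p = 0.00545 and 0.0455, adjusted p = 0.0136 and 0.0910), and r = 0.453 without Ctrl 1 and AngII 4, so that relation rests in part on those mice. With H2-K1, r was 0.861 and rho 0.895 (permutation p = 3e-05 and 4e-05, adjusted p = 0.00015 and 0.0002), 0.790 without the same mice and 0.878 within groups. H2-K1 and B2m, which form 1 molecule, had r = -0.0459 and rho = 0.165 (permutation and adjusted p = 0.883 for r, permutation p = 0.572 for rho), with r = 0.436 once AngII 4 and AngII+LY 4 were left out.

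Markers of antigen-presenting cells were compared with H2-Ab1 in the same way. With Csf1r, the receptor that macrophages need, r was 0.843 and rho 0.833 (permutation p = 0.00011 and 0.00036, adjusted p = 0.000367 and 0.0012), 0.660 without Ctrl 1 and Ctrl 2 and 0.750 within groups. With Ptprc, the pan-leukocyte gene CD45, r was 0.364 and rho 0.262 (permutation p = 0.202 and 0.366, adjusted p = 0.289 and 0.523), with r = 0.369 without Ctrl 1 and AngII 4. Within groups its r was 0.543 (permutation p = 0.045, adjusted p = 0.0814). With the dendritic cell integrin Itgax, r was 0.571 and rho 0.732 (permutation p = 0.0332 and 0.0043, adjusted p = 0.0664 and 0.0107), with r = 0.814 without Ctrl 3 and AngII 1. Its r within groups was 0.592 (permutation p = 0.0262, adjusted p = 0.0655). With the B cell receptor subunit Cd79a, r was 0.284 and rho 0.0945 (permutation p = 0.326 and 0.748, adjusted p = 0.408 and 0.831), with r = -0.0819 within groups. For the pairs of H2-K1 with Nlrc5 (r = -0.0716, rho = -0.0637) and with Ptprc (r = 0.427, rho = 0.389) the permutation p was 0.806 and 0.127 for r. Within groups these pairs had r = -0.226 and 0.520.

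**Figure D4:**
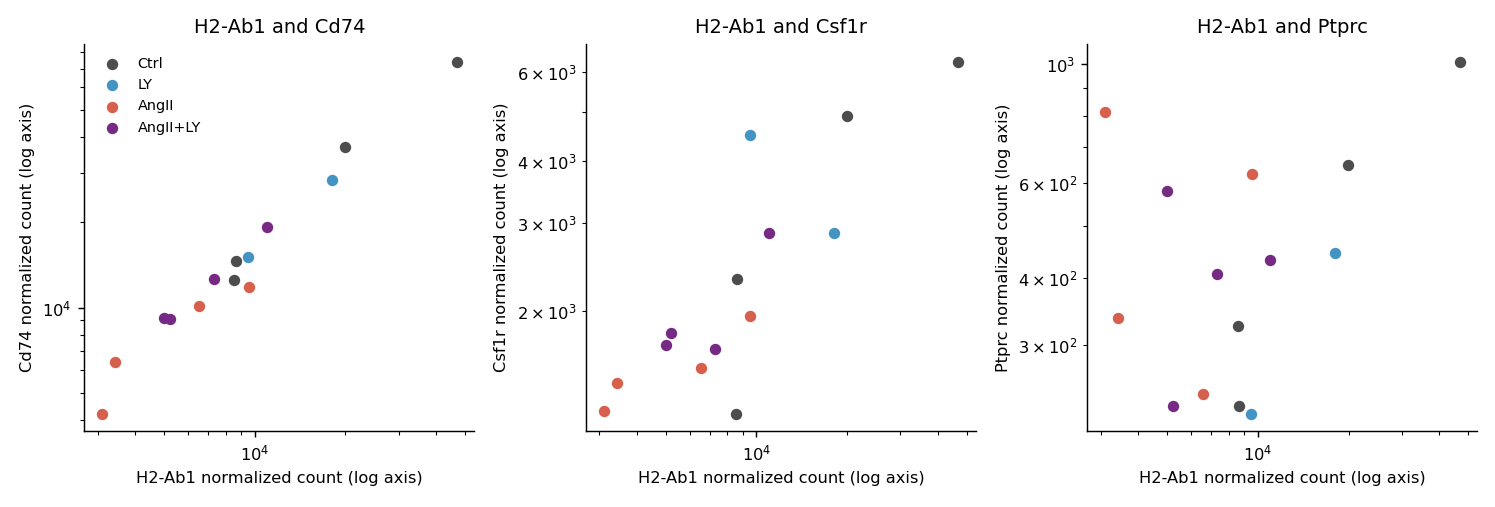
Normalized counts of Cd74, Csf1r and Ptprc against H2-Ab1 on log axes, 1 point for each of the 14 mice, coloured by group. Cd74 follows H2-Ab1 closely (r = 0.986), Csf1r less closely (r = 0.843), and Ptprc spreads (r = 0.364). Within groups the r is 0.981 for Cd74, 0.750 for Csf1r and 0.543 for Ptprc.

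Among non-members with a mean count of at least 100, the 5 genes most like H2-Ab1 by Pearson r over the 14 mice were Fbxo2 (0.936), Bex3 (0.926), Tspan31 (0.922), Cnpy2 (0.918) and Rcn3 (0.917). None belongs to the lists used here. The 5 most like H2-K1 were Chst2 (0.929), the class Ib gene H2-Q5 (0.921), Tmem106a (0.915), and the interferon-inducible genes Bst2 (0.887) and Ifitm3 (0.886). They are the top of 13609 genes searched and are given as a description.

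Markers of the cells that carry class II were read in the same libraries. Of 12 macrophage genes, 6 were lower in AngII than in Ctrl mice at an unadjusted edgeR p under 0.05 and none was higher, beside 11.7% of all genes lower. Their median log2 fold change was -1.17. Without Ctrl 1, 6 were lower and 1 higher, beside 9.0% of all genes lower, and the median was -0.51. With all mice the lower genes were Csf1r, Cd68, the Fc receptor Fcgr1 and the complement subunits C1qa, C1qb and C1qc, with C1qa at -1.86 ± 0.40. Adgre1, Mrc1, Ccr2 and Lyve1, also macrophage genes, stood between 0.28 and 0.73. The summed macrophage level was 29535 to 112827 in Ctrl, highest in Ctrl 1, and 27453, 33476, 39487 and 52015 in AngII mice 1 to 4. H2-Ab1 did not follow the order of this sum, since it was lowest in AngII 4. AngII+LY 4 had 90139, the second highest sum, with an H2-Ab1 count near the lowest of its group. Taken singly, Csf1r had 1544, 1955, 1437 and 1264 and C1qa 2261, 2625, 2042 and 1115 in AngII mice 1 to 4. Both were, like H2-Ab1, highest in AngII 2 and lowest in AngII 4. They were picked from the 6 lower genes of the 12, and the order of the other macrophage genes is not given here. No macrophage marker was at 0 in a whole group.

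The H2-Ab1 to Csf1r count ratio was 3.71 to 7.42 in Ctrl and 2.39 to 4.88 in AngII mice, which overlapped (exact permutation p = 0.171, adjusted p = 0.343). The H2-Ab1 to Ptprc ratio was 26.3 to 46.4 in Ctrl and 3.81 to 26.8 in AngII mice (exact permutation p = 0.0571, adjusted p = 0.190), and 8.59 to 25.4 in AngII+LY mice, below every Ctrl mouse (exact permutation p = 0.0286, adjusted p = 0.171). Ptprc itself differed by -0.14 ± 0.49 between AngII and Ctrl (unadjusted p = 0.786). Dendritic cell markers (2 of 10 lower, summed level 3992 to 5101 in Ctrl and 2451 to 4278 in AngII) and B cell markers (2 of 8 lower, 2695 to 4669 and 2111 to 3325) also overlapped between groups. Of 7 tested T and NK cell markers 1 was lower, and of 8 adipocyte markers 6 were, with a median of -1.63 (3 of 8 without Ctrl 1, 4 of 8 without AngII 4). Beside these counts, 11.7% of all genes were lower with all mice, 9.0% without Ctrl 1 and 1376 of 19145 without AngII 4. The part of macrophage, dendritic or B cell number in the class II values was not tested.

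The rest of the presentation pathway was followed in lists written by function, with earlier results of these data known. They hold 62 genes with the members included, of which 60 were tested. None passed the threshold in AngII against Ctrl, as for the members. At an unadjusted p under 0.05, 11.7% of all genes were lower and 13.4% higher, the background for the list counts that follow. The lower share was 9.0% without Ctrl 1 and 4.2% with the GC offset. Of 5 genes of class II peptide exchange, both H2-DM members, H2-DMb2 and H2-Oa (-2.61, edgeR unadjusted p = 0.0468, at low counts) were lower at an unadjusted p under 0.05, while H2-Ob, which with H2-Oa forms the inhibitor of H2-DM, was at 0.70 ± 0.62. Without Ctrl 1 none of the 5 was lower and 1 was higher at that level, with a list median of -0.81 in place of -1.41, and with the GC offset 2 were lower. Of 8 genes of class II transcription, Ciita, the RFX subunit Rfxank (-1.13 ± 0.33) and the NF-Y subunit Nfyc (-0.78 ± 0.28) were lower at an unadjusted p under 0.05, and Creb1 (0.70 ± 0.27) was higher. Rfxank had no overlap between groups, with 656 to 1308 in Ctrl and 228 to 569 in AngII mice, and 7.56% of all genes were lower with no overlap. Of 6 endosomal enzymes that cut or reduce antigen, the thiol reductase Ifi30 (-1.51 ± 0.47) and the protease Ctsd (-0.42 ± 0.19) were lower.

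On the class I side, 4 of 5 immunoproteasome genes were lower at an unadjusted p under 0.05, beside 11.7% of all genes, with a list median of -0.78. These are the catalytic subunits Psmb8 (-0.96 ± 0.24), Psmb9 (-0.85 ± 0.23) and Psmb10 (-0.78 ± 0.23), which shape peptides for class I, and the activator Psme2 (-0.52 ± 0.16). Without Ctrl 1 the count was again 4 of 5, beside 9.0% of all genes. With the GC offset it was 2 of 5, beside 4.2% (median -0.25, where all genes had 0.09). Psmb9 had 1806 to 2626 in Ctrl and 831 to 1530 in AngII mice, with no overlap, as for 7.56% of all genes.

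Peptide loading was split: Tap1, Tap2, Tapbp and Tapbpl, the transporter and its tapasins, were lower, and the chaperones Canx (0.90 ± 0.23) and Pdia3 (0.97 ± 0.25) and the trimming peptidase Erap1 (0.54 ± 0.18) were higher, all at an unadjusted edgeR p under 0.05. Canx and Pdia3 serve glycoproteins in general. Their transcripts are 41.9% and 46.2% GC, and with the GC offset Canx stood at 0.49 ± 0.16 and Pdia3 at 0.90 ± 0.24. Of the 8 genes of the list, 4 were lower and 3 higher with all mice (median -0.30), against 1 lower and 2 higher with the GC offset (median 0.07). Over all genes 11.7% were lower and 13.4% higher with all mice, and 4.2% were lower with the GC offset.

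Among transcription factors of class I and interferon responses, Irf8 (-1.28 ± 0.34) and Irf1 (-0.51 ± 0.20) were lower at an unadjusted p under 0.05. Nlrc5 was at -0.48 ± 0.58. Of 12 class I related genes, the neonatal Fc receptor Fcgrt (-1.04 ± 0.26) and H2-M3 (-0.74 ± 0.21) were lower, beside 11.7% of all genes lower. Of 4 genes of co-stimulation and class II turnover, none had an unadjusted p under 0.05.

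**Figure D5:**
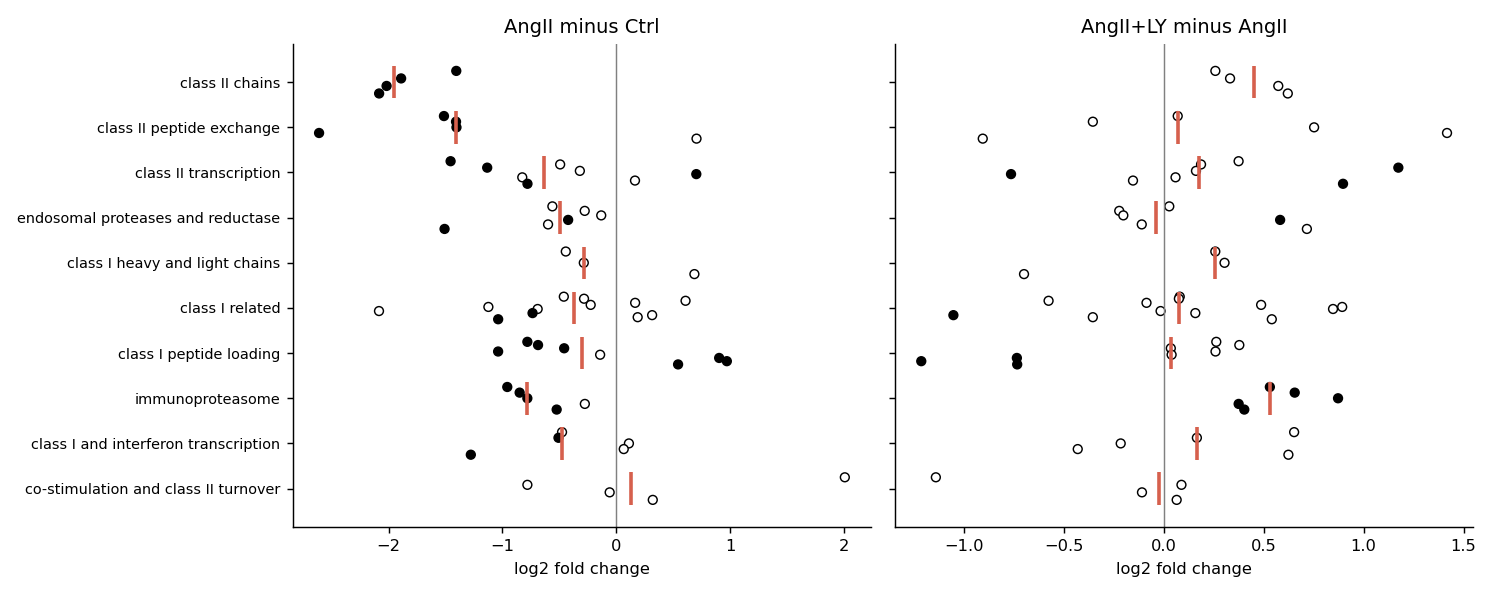
Log2 fold changes of the 60 tested presentation genes by list, for AngII minus Ctrl (left) and AngII+LY minus AngII (right), filled where the unadjusted edgeR p is under 0.05, with a red bar at the list median. The class II chains lie at -2.08 to -1.41 on the left, and the 5 immunoproteasome genes are all above 0 on the right.

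The next comparison asked whether HTR2B blockade altered these genes in AngII-infused valves. In the main fit none of the 10 members differed between AngII+LY and AngII mice at an unadjusted p under 0.05, beside 22.5% of all genes, and none passed the threshold (0.0%). Cd74 had 9195, 19222, 12564 and 9123 in AngII+LY mice 1 to 4, a log2 fold change of 0.62 ± 0.51 over AngII, and H2-Ab1 had 4991, 10985, 7302 and 5215, at 0.33 ± 0.53. H2-Eb1 was at 0.57 ± 0.56, H2-Aa at 0.26 ± 0.48 and Ciita at 0.37 ± 0.61. These differences were of the order of their SE, and the groups overlapped for each gene.

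The H2-DM pair showed no such upward difference. H2-DMa had 538, 406, 760 and 542 in AngII+LY mice, at 0.07 ± 0.49 from AngII, and H2-DMb1 had 316, 588, 436 and 282, at -0.35 ± 0.46. H2-K1 and H2-D1 were at 0.26 ± 0.25 and 0.30 ± 0.31, with AngII+LY 2 highest for both genes in its group. B2m had 36599, 49171, 41591 and 26191, which differed from AngII by -0.70 ± 0.33 (edgeR unadjusted p = 0.0510), and without AngII 4 this became -0.26 ± 0.26. The unadjusted p of B2m was 0.0415 by edgeR without Ctrl 1, 0.0344 by DESeq2 and 0.0488 by the newer quasi-likelihood version. The adjusted p in these fits was 0.211, 0.125 and 0.199.

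Some other presentation genes differed with the antagonist at an unadjusted p under 0.05, as did 22.5% of all genes. With the antagonist all 5 immunoproteasome genes were higher, with a list median of 0.53 beside -0.02 over all genes and 10.1% of all genes higher. Psmb10 had 1641 to 4022 with AngII alone and 5253 to 6068 with the antagonist added, without overlap, at 0.87 ± 0.23 (edgeR adjusted p = 0.0713). Of all genes 5.45% were higher with no overlap. With the GC offset 2 of 5 kept an unadjusted p under 0.05, Psmb9 and Psmb10, beside 9.1% of all genes higher. Without AngII 4 the count was 3 of 5, beside 7.33%, and it was also 3 of 5 in the fit without Ctrl 1, beside 9.75%, where only the spread changes.

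Of 8 genes of class II transcription, 2 were higher and 1 lower at an unadjusted edgeR p under 0.05. Rfxank was higher by 1.17 ± 0.34 and Nfyc by 0.90 ± 0.28, while Creb1 was lower by a log2 change of -0.76 ± 0.27. Over all genes 10.1% were higher and 12.4% lower. With the GC offset 2 of the 8 were higher and 0 lower, beside 9.1% of all genes higher and 1338 of 19145 lower. Of 8 peptide loading genes 3 were lower in AngII+LY mice, Pdia3 (-1.21 ± 0.25), Canx (-0.73 ± 0.22) and Erap1 (-0.73 ± 0.18). With the GC offset 1 of the 8 was lower, Pdia3 at -1.01 ± 0.24. Canx then stood at -0.29 ± 0.16 (edgeR unadjusted p = 0.0952). Ctsd was higher at 0.58 ± 0.19, as 1 of 6 endosomal enzymes, and with the GC offset 0 of the 6 were higher. Cd1d1, which presents lipids, was lower at -1.05 ± 0.31. It was 1 of 12 class I related genes, and with the GC offset the count was also 1 of 12. These comparisons share the AngII mice with the AngII minus Ctrl comparison, so their opposite signs are not independent. Markers of other cells moved too: 6 of 10 cardiomyocyte genes were higher at an unadjusted p under 0.05 (median 1.27), beside 10.1% of all genes higher. Of 10 valve interstitial cell and fibroblast genes 7 were lower (median -0.97), beside 12.4% of all genes lower, and of 12 macrophage genes C1qa and C1qb were higher. Their part in these differences was not tested.

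AngII+LY mice were next set against Ctrl. All 7 class II genes were lower, and 6 of them (all but Ciita) at an unadjusted p under 0.05, beside 6.14% of all genes lower. H2-DMb1 was at -1.76 ± 0.47 (edgeR adjusted p = 0.242) and H2-DMa at -1.44 ± 0.50 (adjusted p = 0.330), and for these 2 genes the groups did not overlap, as for 4.89% of all genes. The I-A and I-E chains and Cd74 lay between -1.56 and -1.15, with overlap. Without Ctrl 1 only H2-DMb1 among the members had an unadjusted edgeR p under 0.05, at a log2 fold change of -1.17, beside 4.36% of all genes lower. The other 5 genes then stood at -0.42 for H2-Aa, -0.55 for H2-Eb1, -0.80 for H2-Ab1, -0.77 for Cd74 and -0.85 for H2-DMa. H2-K1 was at -0.19 ± 0.25, H2-D1 at 0.02 ± 0.31 and B2m at -0.01 ± 0.33. No gene of the 19145 passed the threshold here (0.0%), and by DESeq2 H2-DMb1 alone of the members did, beside 0.951% of all genes called lower.

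In the 2 LY mice without AngII, H2-Ab1 had 9490 and 18038 and Cd74 15124 and 28346, inside the Ctrl range. The 7 class II genes were at log2 fold changes of -0.84 to -0.39 from Ctrl, with SE of 0.57 to 0.77, and no member had an unadjusted p under 0.05 (1.39% of all genes did). Without Ctrl 1 the sign turned for H2-Aa, H2-Ab1, H2-Eb1, Cd74, H2-DMa and H2-DMb1, to 0.03 to 0.21. H2-K1, H2-D1 and B2m differed from Ctrl by -0.19 ± 0.31, -0.06 ± 0.38 and 0.03 ± 0.40.

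The effect of the antagonist with AngII minus its effect without AngII was 1.30 ± 0.90 for H2-Eb1, 1.29 ± 0.82 for Cd74 and 1.21 ± 0.98 for Ciita, and no member had an unadjusted p under 0.05, beside 13.3% of all genes. Without Ctrl 1 it was 0.41 for H2-Eb1 and 0.59 for Cd74. With all mice it was 0.12 ± 0.73 for H2-DMb1 and -0.73 ± 0.51 for B2m. With 2 LY mice the SE of this contrast was 0.73 to 0.98 over the class II genes.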

How the data were processed

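The authors checked reads with FastQC 0.12.1, trimmed them, aligned them to GRCm39 with HISAT2, counted them per gene with featureCounts and tested them with DESeq2. The deposited table is named as normalized, but every value is a whole number and the totals differ between libraries. It was therefore treated as raw counts, an assumption on which the count test of the design rests. Ensembl genes were matched to GENCODE vM39 (618 of 56941 without a match). The strand used in counting is not given in the sources used here.

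The 19145 genes whose mean count reached 10 were tested with edgeR 4.0.16 (R 4.3.3) by the quasi-likelihood method with TMM normalization in 1 fit of 4 groups, with Benjamini-Hochberg adjustment over all tested genes. The legacy quasi-likelihood version, the default of this release, was kept as the main fit after both versions had been seen. A gene was called at an adjusted p under 0.05 with a log2 fold change beyond 0.5 either way. Normalized counts were scaled to the mean TMM effective library size. P-values over mice cover the spread between these mice only, and the floor for H2-Ea covers counting error only, since the reads carry no molecular identifiers.

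Alternatives were DESeq2 1.42.0, DESeq2 size factors, no filter on low counts, the newer quasi-likelihood version, robust estimation, fits of 2 groups alone, a replicate block, a GC offset from loess (span 0.3), block and offset together, limma 3.58.1 on log2(normalized count + 1) or + 10, and leaving out each mouse. Same-numbered mice of different groups did not deviate together (r = -0.128 to 0.0897 over 18 pairs), so the main fit has no block. Correlations and ratios used permutation tests of log2 values. All 10 members are described. Other genes were named from hand-written lists by the size of their moderated statistic, at most 4 a list, with marker genes beside a result, and Tap1, Tap2 and Tapbp were named after their values were seen. The members, lists and ratios were chosen with earlier results of these data known. Exon overlaps and shared 50-base stretches came from GENCODE. The fits were tested on simulated data.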

Additional observations from a re-analysis of the deposited data

How the results depend on the processing

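The direction of the 7 class II genes in AngII minus Ctrl held under every alternative run, with all values below 0. What changed was the number past the threshold: 0 members in the main fit, 6 by DESeq2, 1 (Cd74) by the newer quasi-likelihood version and 0 to 3 when 1 mouse was left out. Over all genes the count was 0, against 2663 by DESeq2, 123 with no filter on low counts, 555 by the newer version, 240 by limma with pseudocount 10 and 0 to 1726 without 1 mouse. The smallest adjusted p of the main fit lay just above the threshold, at 0.0573, with 566 genes below 0.06. At an unadjusted p under 0.05 the count was 4815, against 2882 with the GC offset, 2439 with the block and the offset, 2478 without Ctrl 1 and AngII 4, and 3178 to 5663 without 1 mouse.

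In AngII+LY minus AngII no member passed under any alternative. Over all genes the count was 0, against 2082 by DESeq2, 1 with no filter, 176 by the newer version, 336 and 403 by limma with pseudocounts 1 and 10 and 0 to 842 without 1 mouse, and at an unadjusted p under 0.05 it was 4315, against 2620 with block and offset. In AngII+LY minus Ctrl 1 member passed by DESeq2 (H2-DMb1). Over all genes the count was 0, against 343 by DESeq2, 13 with no filter, 1 with the replicate block and GC offset, 4 and 6 by limma and 0 to 3 without 1 mouse. In LY minus Ctrl it was 21 by DESeq2, and at an unadjusted p under 0.05 it was 266, against 428 by DESeq2, 633 with no filter, 485 by the newer version, 668 with the 2 groups alone and 113 to 383 without 1 mouse. The contrast of antagonist effects called 0 genes, and 203 by DESeq2. At an unadjusted p under 0.05 it had 2545, against 1494 with block and offset and 1290 to 3180 without 1 mouse. The replicate block without the offset gave counts within 1.5 times the main ones, and the numbers do not pair the mice.

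Small differences changed sign. In AngII minus Ctrl, H2-K1 stood at 0.040 and 0.031 and H2-D1 at 0.18 and 0.15 with the GC offset alone and with the replicate block and offset. In AngII+LY minus Ctrl, H2-K1 stood at 0.072 and 0.054 under the same settings. H2-D1 stood there at -0.00075 with no filter, -0.060 with the replicate block and -0.087 by limma with either pseudocount, and B2m at 0.027 with DESeq2 size factors and by DESeq2, 0.028 with the replicate block, 0.13 with the GC offset, 0.17 with block and offset, 0.0025 by limma and 0.22 without Ctrl 1 and AngII 4. H2-DMa in AngII+LY minus AngII was -0.12 with the GC offset and without Ctrl 1 and AngII 4. In LY minus Ctrl, leaving out both mice gave 0.16 for H2-Aa, 0.15 for H2-Ab1, 0.17 for H2-Eb1, 0.027 for Cd74, 0.21 for H2-DMa and 0.13 for H2-DMb1, and the GC offset gave 0.035 for H2-D1. In the contrast of antagonist effects, leaving out both mice gave -0.0086 for H2-Aa, -0.023 for H2-Ab1, -0.33 for H2-DMa and -0.58 for H2-DMb1, and H2-DMb1 was -0.20 with the GC offset, -0.026 by limma with pseudocount 1 and -0.022 with 10. The causes were not tested.

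Without 1 mouse at a time, LY minus Ctrl ranged from -1.20 to 0.16 for H2-Aa, -1.14 to 0.15 for H2-Ab1, -1.26 to 0.17 for H2-Eb1, -1.19 to 0.027 for Cd74, -0.76 to 0.21 for H2-DMa, -1.06 to 0.13 for H2-DMb1, -0.18 to 0.041 for H2-D1 and -0.11 to 0.27 for B2m. AngII+LY minus AngII ranged from -0.20 to 0.40 for H2-DMa, -0.067 to 1.03 for Ciita and -0.0039 to 0.56 for H2-D1, and AngII+LY minus Ctrl from -0.29 to 0.19 for H2-D1 and -0.15 to 0.22 for B2m. The contrast of antagonist effects ranged from -0.14 to 0.83 for H2-DMa and -0.48 to 0.71 for H2-DMb1.

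Within groups the correlation of H2-Ab1 with Ciita was 0.518 (permutation adjusted p = 0.0814) and that with Cd79a -0.0819, and with pseudocount 10 that with Itgax was 0.632 (permutation adjusted p = 0.030). H2-K1 with B2m was 0.436 without the 2 farthest mice and 0.293 within groups.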
